A study of Mus musculus with 27 samples.

Results

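Wnt ligands, Frizzled receptors and the secreted Wnt inhibitors of the Sfrp and Dkk families were followed through the differentiation of mouse embryonic stem cells (ESCs) into smooth muscle and blood, with and without a block of the transcription factor AP-1. The members are all genes on the array whose symbol is Wnt, Fzd, Sfrp or Dkk followed by a number, found through the RefSeq accession of each probe. There were 37 of them among 37208 genes or transcripts, made up of 19 ligands, 10 receptors and 8 secreted inhibitors (4 Dkk and 4 Sfrp genes). Each was read from 1 probe, the one with the highest mean over the 27 arrays.

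The ESCs carry a Flag-tagged dominant-negative FOS (dnFOS), a peptide that pairs with JUN proteins and keeps AP-1 off DNA, in a doxycycline (DOX) inducible cassette at the Hprt locus. All 13 groups came from this selected dnFOS line, so the untreated groups carry the cassette as well, and no cells without it were given DOX on these arrays. FLK1+ hemangioblast cells were purified from embryoid bodies at 3.75 days and put into blast culture (BC) without DOX or with 1 µg/ml DOX. RNA came from untreated FLK1+ cells, from whole cultures after 5 h (FLK1+ 5h, FLK1+ 5h DOX) and 1 day (d1 BC, d1 BC DOX), and from cells sorted after 2 days, with and without DOX. The sorted populations were SM (smooth muscle), HE1 (hemogenic endothelium, KIT+TIE2+CD41-), HE2 (later hemogenic endothelium, KIT+TIE2+CD41+) and HP (hematopoietic progenitors, KIT+TIE2-CD41+). There were 3 arrays of untreated SM and 2 of every other group. The labels do not say whether replicates came from separate cultures, so p-values measure the spread between these samples, which may be technical.

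Wnt proteins are secreted lipid-modified ligands that bind Frizzled receptors on neighbouring cells. With the co-receptors Lrp5 and Lrp6, several of them stabilise β-catenin, which then acts with TCF/LEF factors on target genes. Others, such as Wnt5a and Wnt11, are best known for signalling through planar polarity and calcium routes. Sfrp proteins bind Wnt ligands outside the cell, whereas Dkk1, Dkk2 and Dkk4 block the Lrp co-receptors. In the embryo, Wnt signals help to form the mesoderm from which FLK1+ cells arise, and they act again when blood forms from hemogenic endothelium.

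All values below are levels, the log2 of the background-subtracted signal relative to the same array's 75th percentile, and a difference between groups is a log2 change with its standard error (SE) from a limma model fitted to all 27 arrays. Levels of different genes come from different probes and were not compared with each other. A gene was called when its Benjamini-Hochberg adjusted p, taken over all genes tested, was under 0.05 and the change was at least 2-fold. The test required that 1 of the groups compared had the probe well above background (by the scanner software's flag) on its whole set of arrays. The number of arrays limits the precision, and the 95% confidence interval of a change with DOX reached 1.02 to 3.11 to either side among tested members. The 75th percentile of the signal ran from 73.2 to 636 over the 27 arrays and was under 150 on both HE1 arrays and on 1 array each of HE2 and HE1 DOX. The share of probes well above background ran from 46.8% to 89.6%. Hprt, at the locus of the cassette, was higher on every DOX array than on every untreated array in all 6 populations, by 1.41 (FLK1+ 5h) to 3.63 (d1 BC). Its increase was called in SM cells (3.50, SE 0.53, adjusted p 0.034), and the adjusted p was 0.11 to 0.99 in the other populations.

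Wnt5b is the member whose promoters hold the searched motifs most often, so its sequences are shown here. Promoter sequences from RefSeq (build GRCm38.p6, 250 bases before to 50 bases after a start site) were at hand for 25 of the 37 members. Both strands were searched for TGANTCA (AP-1), GGAATG (TEAD) and CTTTGAT (TCF/LEF). The 25 members had 28 promoters, 3 of them of Wnt5b, and a gene was counted when any of its promoters held the letters. The AP-1 letters were found for 1 member, Wnt5b, against 8.97% of the 27025 genes with a promoter in the table. The TEAD letters were found for 1 member, again Wnt5b, against 16.6% of these genes, and the TCF/LEF letters for 2 members, Wnt5b and Wnt11, against 4.29%. Wnt5b has 3 start sites in the table, all on the minus strand of chromosome 6, at chr6:119544298-119544597 (start site 1), chr6:119467162-119467461 (start site 2) and chr6:119449337-119449636 (start site 3). Capitals mark TGAGTCA, an AP-1 match at positions -191 to -185 from start site 1, CATTCC, the reverse complement of the TEAD letters, at positions 13 to 18 after start site 2, and CTTTGAT, a TCF/LEF match at positions -71 to -65 from start site 3. A match describes the letters only and does not show that a factor binds.

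Wnt5b start site 1: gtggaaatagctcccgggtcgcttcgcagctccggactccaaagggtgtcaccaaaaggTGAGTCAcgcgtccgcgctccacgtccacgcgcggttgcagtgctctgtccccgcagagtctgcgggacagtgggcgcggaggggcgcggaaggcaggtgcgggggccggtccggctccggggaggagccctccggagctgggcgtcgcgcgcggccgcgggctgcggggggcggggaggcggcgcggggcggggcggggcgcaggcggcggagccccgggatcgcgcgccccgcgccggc
Wnt5b start site 2: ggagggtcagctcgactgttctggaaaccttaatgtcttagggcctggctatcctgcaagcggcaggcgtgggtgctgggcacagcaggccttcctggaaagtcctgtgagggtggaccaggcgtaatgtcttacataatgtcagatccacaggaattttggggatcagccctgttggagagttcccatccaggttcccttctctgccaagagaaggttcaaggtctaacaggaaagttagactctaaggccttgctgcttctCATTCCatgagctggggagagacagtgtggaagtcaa
Wnt5b start site 3: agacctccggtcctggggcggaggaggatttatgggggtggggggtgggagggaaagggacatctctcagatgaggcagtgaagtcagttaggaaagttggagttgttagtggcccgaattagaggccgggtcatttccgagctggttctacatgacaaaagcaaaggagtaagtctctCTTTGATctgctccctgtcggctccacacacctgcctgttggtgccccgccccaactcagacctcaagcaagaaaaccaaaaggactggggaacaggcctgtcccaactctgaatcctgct

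Most members were measurable in the cultures and fewer in the sorted blood lineage. The number above background on each array of a group was 27 in FLK1+, 32 in FLK1+ 5h, 30 in d1 BC and 33 in SM, whereas it was 24 in both HE1 and HP and 19 in HE2. By array, the share of all probes well above background was 57.3% and 46.8% in FLK1+, 54.6% and 64.2% in FLK1+ 5h and 66.9% and 53.2% in d1 BC. It was 59.4%, 89.6% and 55.8% in SM, 53.6% and 70.3% in HE1, 51.0% and 74.8% in HE2 and 62.4% and 66.0% in HP. The part of array brightness in these counts was not tested. Over the whole series, 12 members were well above background on every array. They were 5 ligands (Wnt1, Wnt5a, Wnt5b, Wnt11 and Wnt16), 5 receptors (Fzd1, Fzd2, Fzd3, Fzd4 and Fzd10) and 2 inhibitors (Sfrp2 and Sfrp5). Wnt3a, a ligand of the β-catenin route, was well above background on 0 of 27 arrays and was the 1 member not tested. Wnt8b and Sfrp4 were well above background on 9 arrays each, and Dkk2 and Dkk4 on 10 each.

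**Figure D1:**
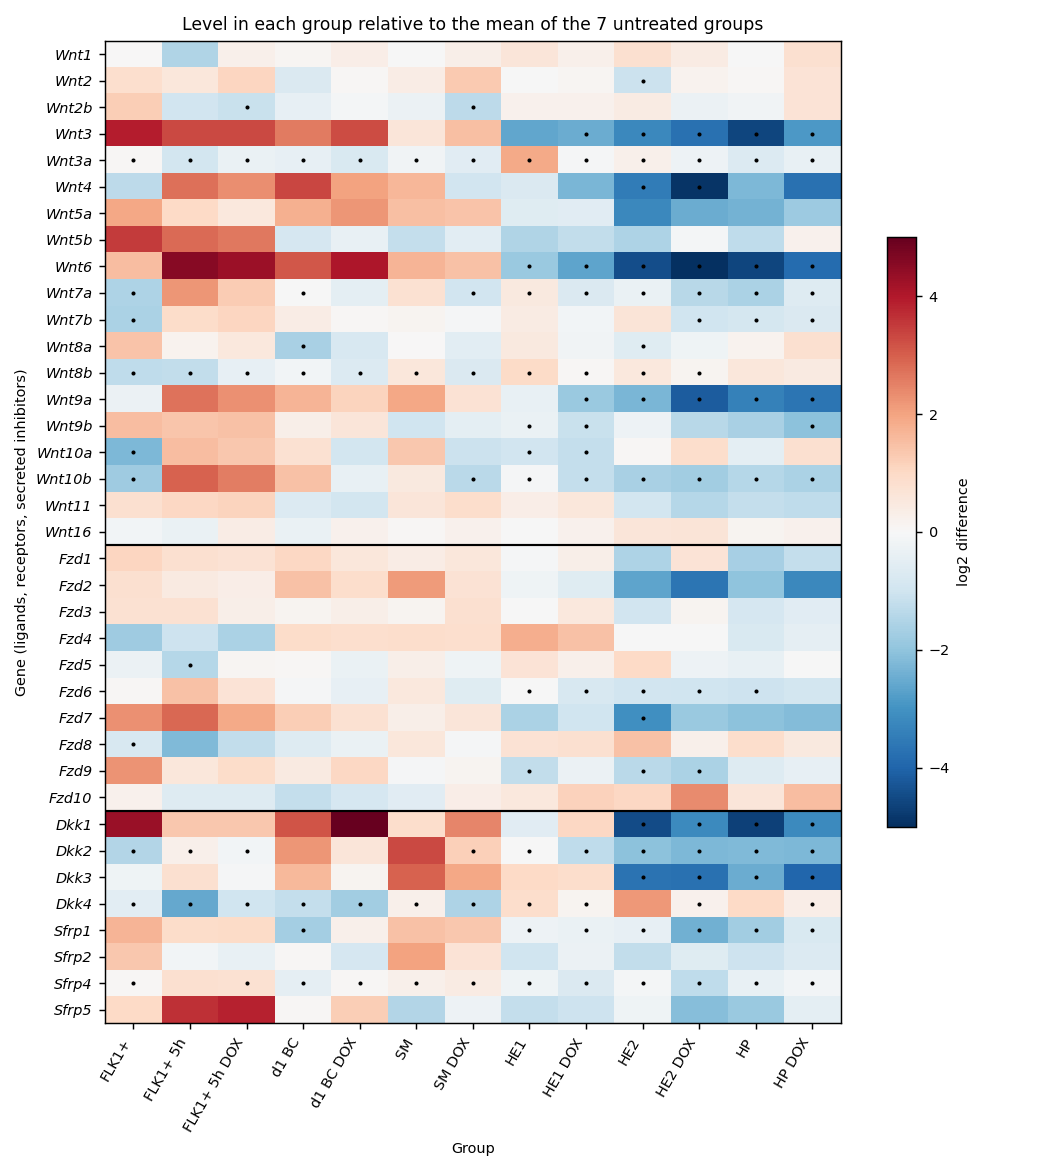
Mean level of each of the 37 members (rows) in each of the 13 groups (columns), as the log2 difference from the mean of that gene's 7 untreated group means. Red is higher and blue lower, and a dot marks a group in which not every array was well above background. Dkk1 runs from red in FLK1+ (mean level 3.42) to blue in HP (-5.58), and Fzd4 is reddest in HE1 (3.41).

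The first question was which members changed as untreated cells differentiated. A moderated F test over the 7 untreated groups passed for 22 of the 36 members tested (adjusted p under 0.05), against 17.9% of all genes tested. These were 10 of 18 ligands (Wnt3, Wnt4, Wnt5a, Wnt5b, Wnt6, Wnt8a, Wnt9a, Wnt9b, Wnt10b and Wnt11), 6 of 10 receptors (Fzd1, Fzd2, Fzd4, Fzd7, Fzd8 and Fzd9) and 6 of 8 inhibitors (Dkk1, Dkk2, Dkk3, Sfrp1, Sfrp2 and Sfrp5). Among the 22, the highest untreated mean lay in FLK1+ or FLK1+ 5h cells for 15 members, in SM cells for 4 (Fzd2, Dkk2, Dkk3 and Sfrp2), in d1 BC for Wnt4, in HE1 for Fzd4 and in HE2 for Fzd8. The same split over all genes that passed is not given here, so it is not known to be particular to the members. Marker genes of other lineages differed over the same groups. The summed level of 5 mesoderm markers (log2 of their added signals, on the same scale) was 6.73 to 7.12 in FLK1+ and -2.94 to -1.91 in HP. The summed level of 7 blood markers was 1.44 to 1.47 in FLK1+ and 6.65 to 6.85 in HP. In these bulk samples fewer cells of a type and less RNA per cell cannot be told apart.

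Over the 7 steps between untreated groups, 13 changes of members were called, 5 higher and 8 lower, against 1.49% of the tests of all genes. They fell on 11 genes, with Wnt4 and Dkk1 called in 2 steps each and the other 9 genes in 1. The median change of the members tested was -0.58 from FLK1+ 5h to d1 BC (0.04 over all genes tested), -0.67 from d1 BC to HE1 (0.05) and -0.61 from HE1 to HE2 (0.04). It was 0.44 from HE1 to SM (-0.03) and -0.17 from FLK1+ to FLK1+ 5h (-0.18).

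Between FLK1+ cells and FLK1+ 5h cultures, 4 ligands rose and no fall was called, among 33 members tested, against 2.84% of all genes called (2.6% higher). Wnt10b, a ligand of the β-catenin route, was at -3.84 and -4.73 in FLK1+ and at 0.47 and 0.46 after 5 h. Its increase of 4.75 (SE 0.95, adjusted p 0.011) was the largest of the 4, and it was well above background on 1 of the 2 FLK1+ arrays. Wnt4, known for its part in kidney and gonad development, was at -0.96 and -0.54 in FLK1+ and at 3.26 and 3.30 after 5 h. The increase was 4.03 (SE 0.92, adjusted p 0.022). Wnt9a was at -2.79 and -2.06 before and at 1.00 and 0.23 after 5 h, an increase of 3.04 (SE 0.72, adjusted p 0.028). Wnt7a was not well above background on either FLK1+ array, with levels of -5.29 and -5.89, and was at -1.66 and -2.00 after 5 h. It was at least 5.14-fold higher after 5 h (adjusted p 0.048), the bound being set by the dimmest probes well above background on the FLK1+ arrays. Bounds of this kind, here and below, hold for the scaling used here and can be smaller in other settings. The groups did not overlap for any of the 4 ligands.

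Markers of other cell types differed over the same 5 h. The summed level of 3 mesothelium markers was -2.42 to -2.00 in FLK1+ and 1.04 to 1.92 after 5 h, and Msln (at least 4.92-fold higher, being well above background on neither FLK1+ array) and Wt1 (a log2 change of 3.64) of this list were called. The summed level of 5 smooth muscle markers went from 6.35 to 6.60 in FLK1+ to 8.88 to 9.69, with Acta2 called (3.83). Their part in the rise of the ligands was not tested. The FLK1+ arrays shared a slide with 1 FLK1+ 5h array only, and within this slide the differences were 4.75 for Wnt10b, 4.05 for Wnt4 and 2.65 for Wnt9a. With the slide as a fixed block, which drops the other FLK1+ 5h array, Wnt10b was still called (adjusted p 0.0040), and the adjusted p was 0.097 for Wnt4, 0.16 for Wnt9a and 0.20 for Wnt7a. Median scaling ended the calls of Wnt4 (adjusted p 0.053) and Wnt9a (0.065), and quantile normalization that of Wnt9a (0.065). Wnt7a was called in 9 of the 14 alternative settings, and its adjusted p was 0.078 with no filter. Its increase was as small as 1.21 in one of these settings, less than the bound given above. Wnt7a and Wnt10b were not tested when a probe had to be above background in all groups compared. Without 1 of the 4 arrays compared, the call was lost for Wnt10b (without FLK1+ replicate 2 or FLK1+ 5h replicate 1), Wnt9a (without either FLK1+ array or FLK1+ 5h replicate 1) and Wnt4 and Wnt7a (without any of them; Wnt7a also without 13 of the other 23 arrays), and the increases of Wnt10b, Wnt4 and Wnt9a stayed between 2.65 and 5.20.

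Of the members not called in this step, Dkk1 and Wnt6 were singled out after their values were seen. Dkk1, the inhibitor of the Lrp co-receptors, was at 3.27 and 3.58 in FLK1+ and at 0.66 and 0.27 after 5 h. Wnt6 was at -0.20 and 0.77 in FLK1+ and at 3.35 and 3.22 after 5 h. In neither case did the arrays of the groups overlap. The change of Dkk1 was -2.96 and that of Wnt6 3.00.

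**Figure D2:**
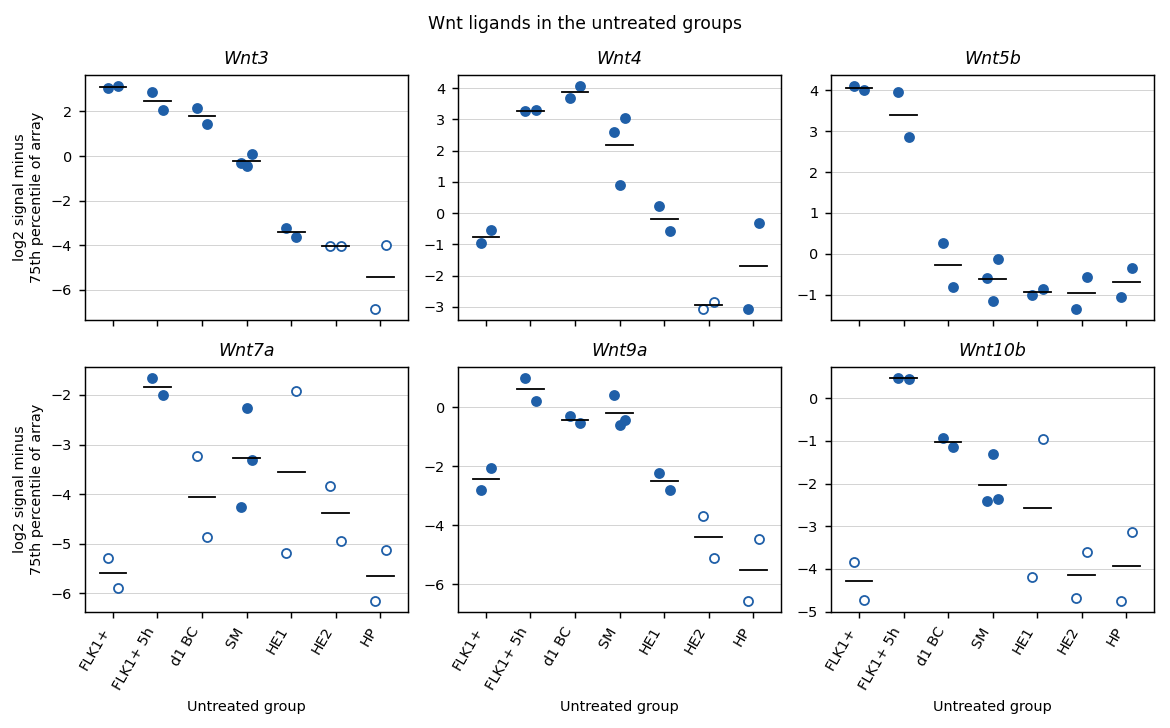
Level (log2 signal relative to each array's 75th percentile) of 6 Wnt ligands on each array of the 7 untreated groups, with a line at the group mean. Open circles mark groups in which not every array was well above background. Wnt4, Wnt7a, Wnt9a and Wnt10b are higher in FLK1+ 5h than in FLK1+, Wnt5b drops at d1 BC, and Wnt3 has a lower mean in every later group than in FLK1+.

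From FLK1+ 5h to d1 BC, 2 of 34 members tested fell and no rise was called, against 1.44% of all genes called (0.883% lower). Wnt5b, a ligand close to Wnt5a in sequence whose promoters are printed above, was at 4.12 and 4.02 in FLK1+ cells and at 3.96 and 2.86 after 5 h. It was at 0.27 and -0.80 after 1 day, a fall of 3.68 (SE 0.58, adjusted p 0.0030). From then on its group means stayed between -0.96 and -0.27 in all untreated groups. Sfrp5 was at 2.64 and 1.72 after 5 h and at -0.71 and -2.12 after 1 day, a log2 change of -3.60 (SE 0.89, adjusted p 0.049). Its adjusted p lay just under the threshold, and the call was lost without any 1 of 20 of the 27 arrays, with changes between -4.30 and -2.89. The call of Wnt5b was lost without FLK1+ 5h replicate 1 or d1 BC replicate 2, and its change lay between -4.23 and -3.13 over the 27 fits that left out 1 array. Its call was also lost when only the groups compared were fitted, and that of Sfrp5 held in 9 of the 14 alternative settings. With the slide as a fixed block, the changes were -3.50 for Wnt5b (adjusted p 0.016) and -3.98 for Sfrp5 (adjusted p 0.066), and within the 1 slide that holds both groups -3.67 and -3.84. The mesoderm markers T (-4.69) and Mesp1 (-5.67) were called lower in the same step, and Acta2 (3.99) and Col1a2 (2.83) higher.

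Wnt5b also fell in the DOX-treated cultures, on arrays that share no sample with the untreated ones. It was at 3.46 and 2.94 in FLK1+ 5h DOX and at 0.49 and -0.13 in d1 BC DOX, a change of -3.02 (SE 0.58, adjusted p 0.011), against 1.4% of all genes called in this step (0.746% lower and 0.656% higher). On each of the 2 slides that hold both groups the difference was -3.07 or -2.97. Fzd4, a receptor with a known role in blood vessels, was the other member called, and it rose. Its levels were -0.69 and 0.73 in FLK1+ 5h DOX and 2.54 and 2.29 in d1 BC DOX, an increase of 2.40 (SE 0.56, adjusted p 0.037). In untreated cells Fzd4 went from 0.32 and 0.83 after 5 h to 2.23 and 2.79 after 1 day, also without overlap, and this change was not called. The call of Fzd4 under DOX held in 7 of the 14 alternative settings and was lost without either d1 BC DOX array or without FLK1+ 5h DOX replicate 1, among others. The call of Wnt5b under DOX held in 12 of the 14 alternative settings and was lost without either FLK1+ 5h DOX array or d1 BC DOX replicate 2.

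From d1 BC to SM no member was called, against 0.234% of all genes. With limma at an unadjusted p under 0.05, 4 members were higher in SM (4.64% of all genes) and 2 lower (1.22%).

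From d1 BC to HE1, 4 of 31 members tested fell and no rise was called, against 3.13% of all genes called (1.3% lower). Wnt3, a ligand needed for the first mesoderm of the embryo, was at 2.14 and 1.42 in d1 BC and at -3.23 and -3.63 in HE1. This was the largest called change of a member between untreated groups, -5.21 (SE 1.02, adjusted p 0.0080). Wnt4 fell back from 3.67 and 4.08 to 0.22 and -0.57, a change of -4.05 (SE 0.92, adjusted p 0.020). The receptor Fzd7 was at 1.78 and 2.00 in d1 BC and at -1.35 and -0.52 in HE1. Its change was -2.83 (SE 0.53, adjusted p 0.0063), and the other probe of Fzd7, which was dimmer, gave -1.49. Dkk1 was at 2.35 and 2.14 in d1 BC and at -0.79 and -2.12 in HE1, a change of -3.70 (SE 0.96, adjusted p 0.041). The groups did not overlap for any of these genes.

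Both HE1 arrays were among the dimmest, with a 75th percentile of 125 and 128 against 466 and 621 in d1 BC. No slide holds arrays of both groups, so there is no within-slide value. With the slide as a fixed block the changes were -5.18 for Wnt3, -2.90 for Wnt4, -3.31 for Fzd7 and -3.69 for Dkk1, and none of the 4 was called (adjusted p 0.053 to 0.35). With the slide as a random block Wnt3, Wnt4 and Fzd7 were called, and the adjusted p was 0.062 for Dkk1. None of the 4 was called when only the groups compared were fitted. Dkk1 was also not called with no filter or when a probe had to be above background in all groups compared. The call was lost without either d1 BC array for each of the 4 genes, and also without HE1 replicate 2 for Wnt3, HE1 replicate 1 for Fzd7 and either HE1 array for Wnt4 and Dkk1. Dkk1 was also not called without 10 of the other 23 arrays. The changes then lay between -5.57 and -2.41. The endothelial markers Tie1 (a log2 change of 5.30) and Emcn (at least 36.5-fold, being well above background on neither d1 BC array) were called higher in HE1 than in d1 BC. The smooth muscle markers Cnn1 (-4.88) and Myh11 (at least 4.16-fold, being well above background on neither HE1 array) were called lower. The summed level of the 5 mesoderm markers was 2.51 to 3.07 in d1 BC and -0.18 to -0.10 in HE1. That of the 3 mesothelium markers was 1.74 to 1.82 and 0.04 to 0.24. The sums of the endothelial, blood and fibroblast and mesenchyme lists were higher in HE1 without overlap. The part of such cells in the changes of the 4 members was not tested.

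From HE1 to HE2, 2 secreted inhibitors fell and no rise was called, among 27 tested, against 2.33% of all genes called (1.8% lower). Dkk3, a secreted member of the Dkk family that differs from the others in not being a clear inhibitor of the Lrp co-receptors, was at 0.50 and -0.98 in HE1 and at -5.04 and -4.77 in HE2. Its change was -4.66 (SE 0.78, adjusted p 0.0029), with 1 of the 2 HE2 arrays well above background. Dkk1 went from -0.79 and -2.12 to -4.92 and -5.80 and was well above background on neither HE2 array. It was at least 7.10-fold lower in HE2 (adjusted p 0.036).

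Both genes fell as well between HE1 DOX and HE2 DOX cells, which were other arrays, against 1.35% of all genes called there (0.949% lower). Dkk1 was at 0.07 and 0.21 in HE1 DOX and at -4.35 and -3.83 in HE2 DOX, a change of -4.22 (SE 0.96, adjusted p 0.032). Dkk3 was at -0.45 and -0.24 in HE1 DOX and at -5.37 and -4.53 in HE2 DOX, where neither array was well above background. It was at least 17.3-fold lower (adjusted p 0.0057). Within each of the 2 slides that hold these groups, the difference was -5.54 or -3.78 for Dkk3 without DOX and -4.41 or -4.03 for Dkk1 with DOX. With the slide as a fixed block Dkk3 was called in both, Dkk1 was called with DOX (adjusted p 0.045), and its adjusted p was 0.051 without.

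Markers of fibroblasts and mesenchyme fell with Dkk1 and Dkk3 at this step. The summed level of 6 such markers was 5.53 to 6.38 in HE1 and 1.78 to 2.31 in HE2, and 4.61 to 5.27 and 1.28 to 2.23 with DOX. All 6 were well above background on both HE1 arrays, as they were in SM cells, where the sum was 7.01 to 7.66. Col1a2 (-3.61), Col3a1 (-4.37), Pdgfra (-3.20) and Pdgfrb (-3.61) were called lower in HE2 than in HE1, and so were the smooth muscle markers Acta2 (-3.11) and Cald1 (-3.04). The part of such cells in the change of Dkk1 and Dkk3 was not tested. The call of Dkk3 was lost without HE1 replicate 1, and with DOX without HE2 DOX replicate 1, and its change without DOX lay between -5.41 and -3.92 over the 27 fits that left out 1 array. The call of Dkk1 was lost without any of the 4 arrays compared in either step, and it held in 7 of 14 alternative settings without DOX and 10 with DOX. That of Dkk3 held in 12 without DOX and 10 with DOX. In these settings the change of Dkk3 was as small as -2.26 without DOX and -2.02 with DOX. The change of Dkk1 was as small as -1.21 without DOX and -2.26 with DOX. The fold bounds given above for Dkk1 and Dkk3 therefore hold for the scaling used here only.

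From HE2 to HP no member was called, with or without DOX, against 0.00395% and 0% of all genes. With limma at an unadjusted p under 0.05, 1 member was lower in HP than in HE2 without DOX (3.22% of all genes) and 1 with DOX (1.24%), and none was higher.

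Between the SM and HE1 cells sorted from the same day of culture, Sfrp2 was the 1 member called and was higher in SM, against 0.568% of all genes called (0.342% higher). Sfrp2, a Wnt-binding protein often made by mesenchymal cells, was at 1.18, 0.01 and 2.11 in SM and at -1.54 and -2.27 in HE1. The difference was 3.01 (SE 0.58, adjusted p 0.029), without overlap, and within the 2 slides that hold both groups it was 2.29 and 3.65. The call held in 10 of 14 alternative settings. Among those in which it was lost were median scaling (adjusted p 0.052) and a fit of only the groups compared (adjusted p 0.67), and it was also lost without SM replicate 1 or 3 or without either HE1 array, with differences between 2.51 and 3.56. In cells given DOX the levels of Sfrp2 were -0.50 and 0.07 in SM DOX and -1.83 and -0.60 in HE1 DOX, and no member was called between these groups, against 0.0864% of all genes. At an unadjusted p under 0.05, 13 of 33 members were higher in untreated SM than in untreated HE1 (5.16% of all genes) and none was lower. The summed level of smooth muscle markers was 9.89 to 10.94 in SM and 7.99 to 9.18 in HE1. That of fibroblast and mesenchyme markers was 7.01 to 7.66 and 5.53 to 6.38. The mesoderm and mesothelium sums were also higher in SM, and the endothelial and blood sums lower. The part of such cells in these differences was not tested.

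**Figure D3:**
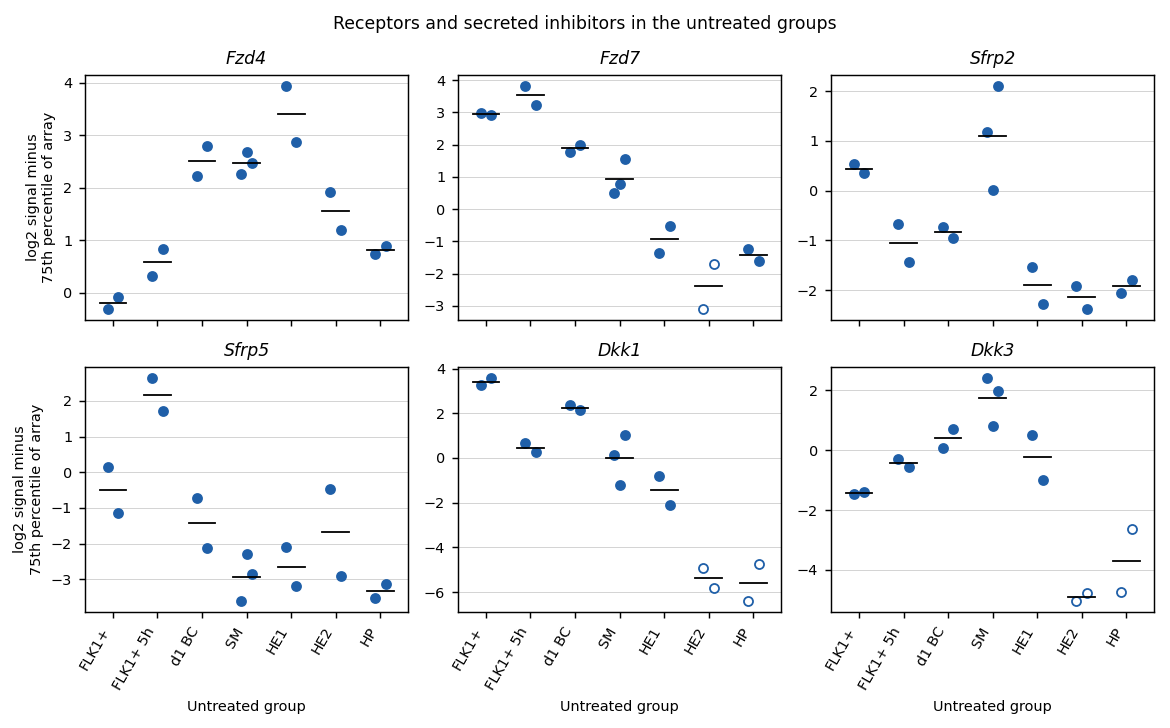
Level (log2 signal relative to each array's 75th percentile) of 2 receptors and 4 secreted inhibitors on each array of the 7 untreated groups, with a line at the group mean. Open circles mark groups in which not every array was well above background. Fzd4 is highest in HE1, Fzd7 declines from FLK1+ 5h to HE2, Sfrp2 and Dkk3 are highest in SM, and Dkk1 and Dkk3 drop from HE1 to HE2.

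The other genes of the F test were described by their untreated group means. Wnt6 ran from 3.29 in FLK1+ 5h to -5.83 in HP (adjusted p of the F test 0.00032), where it was well above background on 1 of the 2 arrays, with levels of -4.15 and -7.51. Wnt5a, a ligand of the planar polarity route, ran from 3.15 in FLK1+ to -2.03 in HE2. Wnt11 ran from 0.02 in FLK1+ 5h to -2.21 in HP.

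Receptors differed in where they were highest. Fzd2 had its highest mean in SM (4.96) and its lowest in HE2 (0.18). Fzd4 ran from -0.20 in FLK1+ to 3.41 in HE1, with HE1 arrays at 3.94 and 2.88, and was the 1 receptor of the F test with its highest mean there. Fzd8 was highest in HE2 (-0.69) and lowest in FLK1+ 5h (-4.37). Fzd1 ran from 2.00 in FLK1+ to -0.73 in HP, and Fzd9 from -0.84 in FLK1+ to -4.42 in HE2. Fzd3, Fzd5, Fzd6 and Fzd10 did not pass the F test. Their untreated ranges were 1.72 to 2.48 on the log2 scale.

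Among the inhibitors, Dkk2 was well above background on all arrays in 3 groups, d1 BC, d1 BC DOX and SM. Its SM arrays spread widely, at 0.22, -2.95 and -0.36. Sfrp1 was highest in FLK1+ (-2.09), and Sfrp5 in FLK1+ 5h (2.18). Dkk4 and Sfrp4 did not pass the F test, and the 8 ligands tested that did not pass were Wnt1, Wnt2, Wnt2b, Wnt7a, Wnt7b, Wnt8b, Wnt10a and Wnt16.

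The second question was whether blocking AP-1 changed the members. No member was called with DOX in any of the 6 populations. The share of all genes called was also small, 0.00903% over the 6 populations, with 0.0398% in HP, 0.0084% in SM, 0.00421% in FLK1+ 5h and 0% in d1 BC, HE1 and HE2. With limma at an unadjusted p under 0.05, 14 of the 171 tests of members passed, 7 higher and 7 lower, against 3.78% of the tests of all genes, and the lowest adjusted p was 0.54. HE2 held 4 higher (5.2% of all genes) and 3 lower (3.72%), and SM held 4 lower (1.95%). FLK1+ 5h (4.84%), d1 BC (0.505%) and HP (1.05%) held 1 higher each, and HE1 held none (1.14%). The median change of the members tested lay between -0.09 (FLK1+ 5h and SM) and 0.34 (HP), beside -0.04, 0.09 and 0.25 over all genes in these populations. In 64 of the 171 tests the arrays with DOX and those without did not overlap, against 27.4% of the tests of all genes. By population these were 11 of 25 members tested in HP (38.1% of all genes), 13 of 33 in FLK1+ 5h (34.9%), 12 of 22 in HE2 (34.7%), 15 of 33 in d1 BC (28.2%), 5 of 25 in HE1 (17.1%) and 8 of 33 in SM (10.5%).

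The mean with DOX was lower in all 6 populations for 6 of 36 members (Wnt4, Wnt9a, Wnt10b, Fzd2, Dkk2 and Dkk3), against 5.4% of all genes, and higher in all 6 for 3 (Wnt2, Wnt16 and Fzd10), against 6.18%. Over the 14 alternative settings these directions held throughout for Wnt4 and Wnt9a alone. With quantile, median, normexp and the authors' scaling the sign turned for Wnt10b and Dkk3 in HE2 and for Wnt16 in HP, and with quantile and median scaling for Dkk2 in HE2. Median scaling also turned Dkk3 in HE1 and Wnt2 and Fzd10 in FLK1+ 5h. Fzd2 in FLK1+ 5h and Wnt16 turned with the mean of all probes or the slide as a fixed block. Wnt4 was below in 5 populations without overlap, Wnt9a in 4, and Wnt2 was above in 4. For Wnt4 and Wnt9a these counts include HE2, where neither was tested. The share of all genes with as many populations is not given here, and 27.4% of the single tests of all genes did not overlap. Wnt4's 2 arrays without DOX were at 3.67 and 4.08 in d1 BC and those with DOX at 2.00 and 3.14. In SM the levels were 2.60, 0.91 and 3.04 without DOX and 0.89 and -1.72 with DOX, and in HE1 0.22 and -0.57 against -1.08 and -2.39. Every DOX array lay below every untreated array in 5 of the 6 populations, and in HP the groups overlapped. In SM the higher DOX array (0.89) lay just below the lowest untreated array (0.91). The change was largest in SM (-2.60), followed by HE1 (-1.56), HP (-1.49), d1 BC (-1.30) and FLK1+ 5h (-0.43). It was -1.42 in HE2 (where it was not tested, being well above background on 1 array of each group). The 95% interval in SM ran from -4.36 to -0.84 (unadjusted p 0.0061, adjusted p 0.999), and those of the other 5 populations included 0. The direction was the same in all 6 populations in each of the 14 alternative settings, quantile, median and normexp scaling included. The size was less steady, with -1.07 to -0.11 in FLK1+ 5h, -1.79 to -0.89 in HP and -1.42 to -0.20 in HE2 over these settings, and -2.86 to -2.17 in SM. Averaged over the 4 sorted populations, the change was -1.76 (SE 0.45, adjusted p 0.12), which was not called, against 0.31% of all genes. It was called with the slide as a random block and without SM DOX replicate 1. The summed level of the 3 mesothelium markers was 0.04 to 0.24 in HE1 and -1.59 to -1.22 in HE1 DOX, where 2 of the 3 were above background on no array of either group. It was 1.04 to 1.92 in FLK1+ 5h and 0.30 to 0.71 in FLK1+ 5h DOX, and it was 0.86 to 1.66 in SM and 1.37 to 1.57 in SM DOX. Msln of this list was called lower in the mean over the sorted populations, at least 1.05-fold, since no array with DOX and 3 of 9 without were well above background. The summed level of the 6 fibroblast and mesenchyme markers was lower with DOX without overlap in 3 populations in which Wnt4 was. All 6 were well above background on every array concerned. Not each of them fell in HE1, where the mean of Col3a1 was 1.77 without DOX and 1.86 with DOX. Their summed level was 5.24 to 5.32 in d1 BC and 3.31 to 4.42 in d1 BC DOX, 7.01 to 7.66 in SM and 6.35 to 6.51 in SM DOX, and 5.53 to 6.38 in HE1 and 4.61 to 5.27 in HE1 DOX. That of the 7 blood markers was lower with DOX in d1 BC (2.41 to 2.65 against 1.81 to 1.84) and overlapped in the other populations. For 4 macrophage markers the summed level was lower with DOX in SM (1.58 to 2.21 against 0.49 to 1.38) and in HE2 (3.16 to 3.40 against 0.60 to 1.54), and also in HP (3.56 to 4.13 against 2.09 to 2.13), where the Wnt4 arrays overlapped. The part of such cells in the levels of Wnt4 was not tested.

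Dkk1 moved the other way in its means. In d1 BC it was at 2.35 and 2.14 without DOX and at 4.71 and 3.75 with DOX. In SM it was at 0.11, -1.19 and 1.04 without DOX and at 1.12 and 2.00 with DOX, and in HE1 at -0.79 and -2.12 against 0.07 and 0.21. The arrays did not overlap in d1 BC, HE1, HE2 and SM. The change was 1.98 in d1 BC, 1.59 in HE1, 1.58 in SM, 1.51 in HP and -0.02 in FLK1+ 5h, and in HE2 it was at least 1.15-fold higher with DOX. HP and HE2 were not tested, since Dkk1 was well above background on 1 array of each HP group, on 1 HE2 DOX array and on no untreated HE2 array. None was called, and the intervals of all 6 included 0. The sign held in the 5 later populations in all 14 alternative settings, with changes of 0.36 to 1.51 in HP, whereas in FLK1+ 5h it turned with quantile, normexp and the authors' scaling. In HP it turned without HP DOX replicate 2. The mean change over the sorted populations was 1.49 (SE 0.47, adjusted p 0.26), and it was called without HP DOX replicate 1. For the 5 mesoderm markers the summed level was higher with DOX without overlap in SM (1.70 to 2.24 against 2.64 to 2.90) and in HE1 (-0.18 to -0.10 against 0.12 to 0.22), where 2 of the 5 were above background on no array. That of 6 endothelial markers was higher in d1 BC (3.66 to 4.36 against 4.50 to 4.67) and HE2 (6.23 to 6.46 against 6.64 to 6.84). It was also higher in HP (5.51 to 5.66 against 5.91 to 6.02), where the Dkk1 arrays overlapped, and in FLK1+ 5h (2.19 to 3.08 against 3.39 to 4.67), where the change of Dkk1 was -0.02. Their part in the levels of Dkk1 was not tested.

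**Figure D4:**
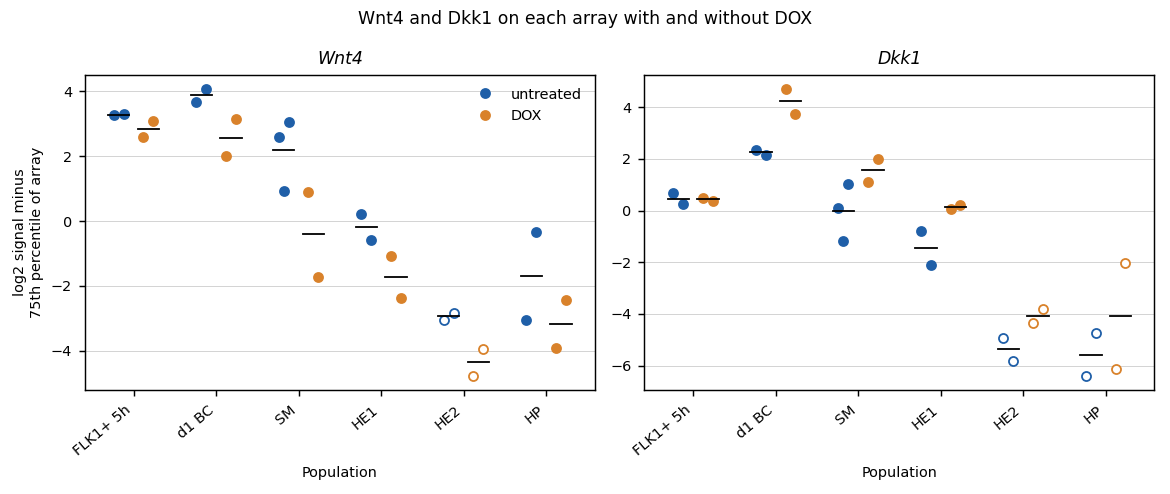
Level (log2 signal relative to each array's 75th percentile) of Wnt4 and Dkk1 on each array of 6 populations, without DOX (blue) and with DOX (orange), with a line at the group mean. Open circles mark groups in which not every array was well above background. Wnt4 means are lower with DOX in all 6 populations and Dkk1 means are higher in the 5 later ones, and no change was called.

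The largest changes of members with non-overlapping arrays in each population are given for description. Of the 24 changes named, all kept their sign in the 14 alternative settings, and 15 were over 1.5 times smaller in at least 1 of them. In FLK1+ 5h, Wnt1 (1.75) and Fzd5 (1.52) were higher and Fzd7 (-0.99) and Wnt7a (-0.93) lower with DOX. Over the settings Wnt1 was as low as 0.50 and Fzd5 as 0.25. Within the 1 slide that holds both groups the differences were 0.30 for Wnt1 and 1.08 for Fzd5, and the other, dimmer probes gave 1.08 for Wnt1, 0.11 for Fzd5 and 0.07 for Fzd7. In d1 BC, Dkk1 (1.98) and Sfrp1 (at least 2.37-fold, being well above background on neither untreated array) were higher and Wnt10b (-1.84) and Wnt10a (-1.67) lower. Over the settings Sfrp1 was as low as 0.27. In SM, Dkk1 (1.58) and Wnt9b (0.49) were higher and Wnt4 (-2.60) and Wnt10b (-1.83) lower. Wnt10b, which rose in the first 5 h of culture, was at -0.93 and -1.13 in d1 BC and at -2.92 and -2.82 in d1 BC DOX. All adjusted p of these 3 populations were 0.99 or higher.

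In HE1, Dkk1 (1.59) and Fzd9 (at least 1.33-fold, with neither untreated array well above background) were higher and Wnt4 (-1.56) and Wnt9a (-1.47) lower with DOX. Over the settings Fzd9 was as low as 0.34. In HE2, Fzd1 (2.25) and Wnt5b (1.43) were higher and Sfrp5 (-1.93) and Wnt7b (3.1-fold by its measured signals, with neither DOX array well above background) lower. The fold of Wnt7b is an estimate and not a lower bound. The 95% interval of its change was -3.25 to -0.01, and over the settings the change was as small as -0.39. In HP, Wnt5b (1.49) and Sfrp5 (1.38) were higher and Fzd2 (-1.21, and 0.36 for its other, dimmer probe) and Dkk4 (-0.68) lower. Fzd1 in HE2 had the lowest unadjusted p of all members (0.0016, adjusted p 0.54), with levels of -1.66 and 0.42 without DOX and 1.34 and 1.91 with DOX. Wnt5b in HE2 was at -1.34 and -0.57 without DOX and at -0.02 and 0.96 with DOX, and in HP at -1.05 and -0.34 against 0.47 and 1.12. The 95% interval of its change was 0.22 to 2.64 in HE2 and 0.28 to 2.70 in HP, and the change was not called in either.

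Averaged over SM, HE1, HE2 and HP, 8 of 35 members tested had an unadjusted p under 0.05, against 11.7% of all genes. Wnt2, Wnt5b, Fzd1 and Dkk1 were higher and Wnt4, Wnt9a, Fzd2 and Dkk4 lower. The changes were 0.74 for Wnt2, 0.98 for Wnt5b, 0.82 for Fzd1, -1.21 for Wnt9a, -1.01 for Fzd2 and -1.30 for Dkk4, with adjusted p of 0.20 to 0.40. None was called. A test of whether the change with DOX differed between the 6 populations passed for 0 of 36 members, against 0% of all genes (0 members and 1.86% of all genes at an unadjusted p under 0.05).

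**Figure D5:**
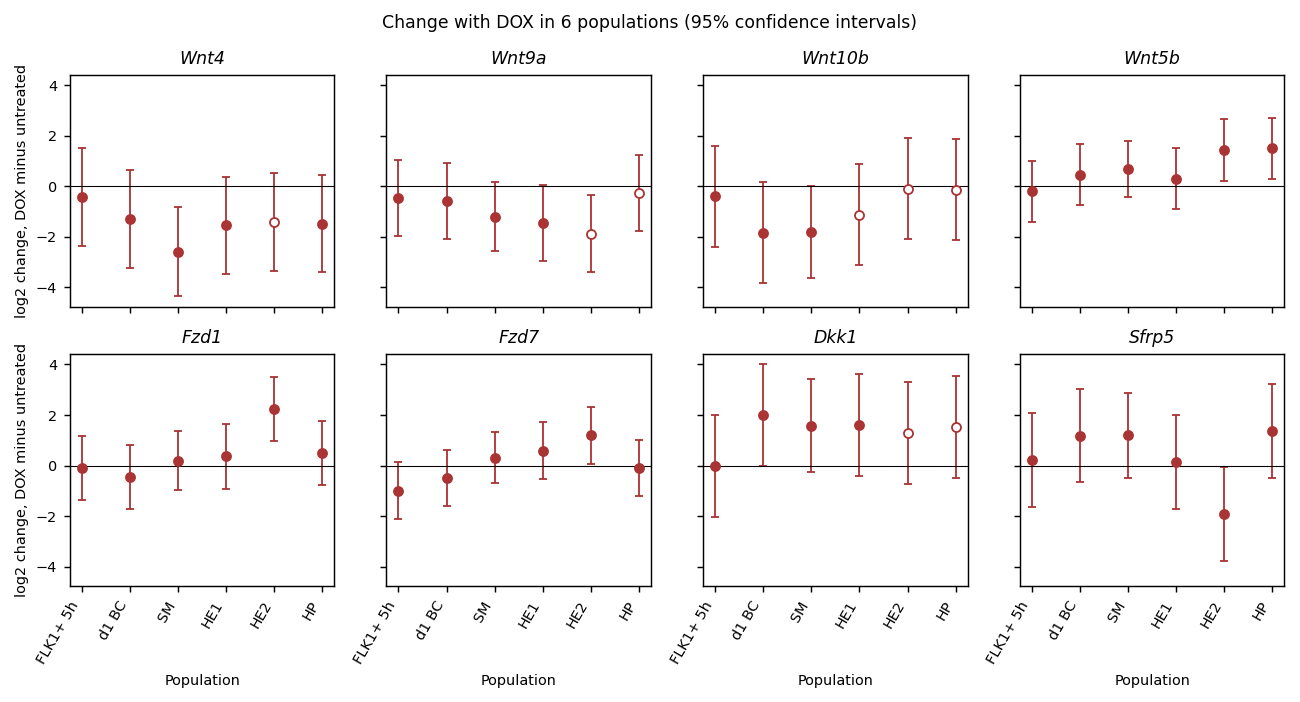
Change with DOX (log2, DOX minus untreated) of 8 members in 6 populations, with 95% confidence intervals from limma. Open circles mark populations in which the gene was not tested. Wnt4 lies below 0 throughout, Fzd1 is highest in HE2, and most intervals include 0.

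Other genes of the Wnt pathway were taken from a list of 68, of which 66 were tested by the F test over the untreated groups. It passed for 24 of them, against the 17.9% of all genes. They were 8 of 11 target and feedback genes, 4 of 12 nuclear factors, 3 of 9 genes of the R-spondin axis, 3 of 8 planar polarity genes, 2 of 7 other secreted antagonists and their partners, 2 of 6 co-receptors and alternative receptors, both genes of ligand processing (Porcn, which attaches the lipid, and Wls, which carries ligands to the surface) and 0 of 11 genes of the intracellular relay such as Ctnnb1, Gsk3b and Apc.

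In the steps between untreated groups, 12 of 419 changes tested of these genes were called, 2 higher and 10 lower, against the 1.49% of the tests of all genes. From FLK1+ 5h to d1 BC, T, a mesoderm factor and target of the β-catenin route, fell from 2.39 and 2.36 to -1.53 and -3.10 (change -4.69, adjusted p 0.045). Frzb, an Sfrp family antagonist, changed by -3.80 (adjusted p 0.024), and Rspo2, a ligand that enhances Wnt signals, was at least 3.73-fold higher (adjusted p 0.020). Cdx1 was the fourth gene called in this step and also fell.

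From d1 BC to HE1, the target gene Tnfrsf19 (-5.19, adjusted p 0.0015), the R-spondin receptor Lgr5 (-4.29, adjusted p 0.015) and the target gene Sp5 (-4.18, adjusted p 0.037) fell, and so did Wls. From HE1 to HE2, Tcf7l1 (-4.72, adjusted p 0.021) and the Wnt5a receptor Ror2 (-3.96, adjusted p 0.041) fell, and Prickle2 was at least 8.65-fold lower (adjusted p 0.049). Tnfrsf19 was higher in SM than in HE1 (3.55, adjusted p 0.039). No gene of the list was called from FLK1+ to FLK1+ 5h, the step in which 4 ligands rose, nor with DOX in any population. With limma at an unadjusted p under 0.05, 14 of the 345 tests of these genes with DOX passed, against the 3.78% of all genes' tests. Among them was Axin2, a feedback gene of the β-catenin route, which was at least 6.26-fold lower with DOX in HE2 (adjusted p 0.54), where neither DOX array was well above background. Its untreated HE2 arrays lay far apart, at 0.15 and -3.78.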

How the data were processed

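Cy3-labelled RNA was hybridised to 27 one-colour Agilent arrays with 62976 spots each. The authors deposited spot intensities from Agilent Feature Extraction (version 10.7.3.1 per the file headers), background-subtracted and detrended within each array but not scaled between arrays. They also deposited log2 values that the authors had normalized between arrays with limma, which were used as an alternative. Their background correction and scaling are not given in the sources used here, and their column medians were 5.98 to 6.00.

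Here log2 of the processed intensity minus the 75th percentile of each array was used. Control spots and outlier flags were left out, spots of a probe were averaged, and each gene was read from its brightest probe. Probes were named through RefSeq accessions. Groups came from the sample labels. Means of 13 groups were fitted with limma 3.58.1 (lmFit and eBayes, 14 residual and 4.49 prior degrees of freedom) in R 4.3.3, with Benjamini-Hochberg adjustment over all genes tested. In data simulated for SM DOX against SM (36714 genes), 20%, 48%, 78% and 94% of genes changed by 2, 3, 4 and 5 on the log2 scale were recovered, with 0 false calls. No probe was saturated and no arrays were identical.

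Members and gene lists were chosen with earlier results of these data known. Named are the members called in a comparison (up to 5 by size) or passing the F test, and for each DOX comparison the 2 largest changes in each direction among tested members with non-overlapping arrays. Of the pathway list, up to 3 called genes are named per comparison with their values. Scaling, background correction, filter, probe choice, samples fitted, replicate and slide blocks, variance model, threshold and left-out arrays were varied. Differences within slides and a crossed replicate block were added after seeing the data.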

Additional observations from a re-analysis of the deposited data

Results flagged for a closer look

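Counting tested changes only, 10 of 36 members had every DOX array above every untreated array in 1 population and below in another, against 19.4% of all genes. In each case the difference between these populations, given here on the log2 scale, was not tested by itself. Over the 6 populations, the test that the change with DOX differs passed for none of the members (unadjusted p 0.054 to 0.947).

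The widest differences were those of Sfrp5, Wnt10a, Fzd5, Fzd1 and Fzd7. Sfrp5 changed by 1.38 in HP and by -1.93 in HE2, a difference of 3.31. The ligand Wnt10a had 1.28 in HP and -1.67 in d1 BC, a difference of 2.95. The receptor Fzd5 had 1.52 in FLK1+ 5h and -1.26 in HE2, a difference of 2.78, and had the lowest p of the test over populations (0.054). Its other, dimmer probe gave 0.11 and 0.02 in these populations. Fzd1 had 2.25 in HE2 and -0.44 in d1 BC, a difference of 2.69. Fzd7 had 1.19 in HE2 and -0.99 in FLK1+ 5h, a difference of 2.18, whereas its other, dimmer probe gave -0.82 in HE2 and 0.07 in FLK1+ 5h, with the opposite signs.

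The others were narrower. Wnt2b had 0.86 in HP and -1.0 in SM, a difference of 1.86. Wnt9b had 0.49 in SM and -1.10 in HE2, a difference of 1.6. Sfrp2 had 0.64 in HE2 and -0.89 in d1 BC, a difference of 1.53. Wnt6 had 0.95 in d1 BC and -0.27 in FLK1+ 5h, a difference of 1.22. Wnt5a had 0.74 in HE2 and -0.45 in FLK1+ 5h, a difference of 1.19.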

How the results depend on the processing

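No called change of a member turned its sign under 14 alternative settings and 27 fits that each left out 1 array. The signs of single pathway genes and markers were not followed over these fits. No member or pathway gene was called with DOX in any single population in any of them, and no member passed the test of a difference between populations. The 13 member calls between untreated groups (5 higher) became 22 with normexp (9 higher), 20 with the authors' values (9 higher), 21 with the slide as a random block, 10 with median scaling (2 higher), 7 when a probe had to be above background in all groups compared, 7 when only the groups compared were fitted and 6 with the slide as a fixed block. The 4 calls between DOX-treated groups became 8, 9, 11, 0, 1, 0 and 6 in the same order, and 2 with quantile normalization. The 12 pathway calls between untreated groups became 23 with normexp, 26 with the authors' values, 19 with the random slide block, 18 with quantile normalization, 7 with no filter, 3 with the stricter filter, 2 with only the groups compared and 8 with the fixed slide block. The 22 members that passed the F test became 8 with the stricter filter. In the mean DOX effect over the sorted populations 1 member (Wnt4) was called with the random slide block. The causes were not tested, apart from the fewer genes or samples that the stricter filter and the smaller fits use. The fixed slide block in effect drops FLK1+ 5h replicate 1.

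Leaving out 1 array gave 6 to 18 member calls between untreated groups, 2 to 5 between DOX-treated groups, 19 to 25 members in the F test, 0 to 1 in the mean DOX effect and 2 to 17 pathway calls. The untreated count was under 9 without either FLK1+, d1 BC or HE1 array or FLK1+ 5h replicate 1. The DOX-treated count was 2 without FLK1+ 5h DOX replicate 1, d1 BC DOX replicate 2 or HE2 DOX replicate 1. The pathway count was 7 or lower without either FLK1+ 5h or d1 BC array or HE1 replicate 1.

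With the replicate number as a block, 14 member calls between untreated groups, 4 between DOX-treated groups, 23 members in the F test and 12 pathway calls were found, SM replicate 3 being in effect dropped. The call of Sfrp2 between HE1 and SM was lost with this block (adjusted p 0.13), and so was that of Wnt7a between FLK1+ and FLK1+ 5h (0.064). Deviations of arrays with the same number correlated at 0.0626 to 0.577 in the 10 comparisons among sorted populations (9 over 0.1) and at -0.215 to 0.394 in the 7 with FLK1+, FLK1+ 5h or d1 BC (2 over 0.1). The numbers were not taken to pair the samples, since not every correlation was over 0.1. With FLK1+ 5h numbers crossed, a setting chosen after seeing the data, the counts were 13, 4, 24 and 12. Median scaling moved the median of all genes by -0.727 to 0.461 on the log2 scale.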
